A study of Mus musculus with 8 samples.

Results

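Ces1d, a carboxylesterase of the endoplasmic reticulum and lipid droplet that cleaves triacylglycerol, was described together with 9 genes that build, coat or break down lipid droplets: Pnpla2, Lipe, Mgll, Plin2, Plin4, Plin5, Dgat1, Dgat2 and G0s2. These 10 genes were taken by symbol from the 49671 genes of the deposited table. Ces1d was chosen by its measured levels in these same libraries, lower after pressure overload and higher under the amino acid diet, so its values are given as a description without a test. The other 9 were chosen for their role, but with earlier results of these data known, so their p-values are not free of selection. They were tested within a fit to all 16432 genes that passed a filter on low values. The filter asked that 2 or more of the 8 libraries reach a value of 1. All 10 passed that filter.

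The samples were polyadenylated RNA of left ventricles from male mice of the C57BL/6N strain, 8 weeks old when the study began. The mice had been operated on, either as sham or by transverse aortic constriction (TAC), which narrows the aorta and loads the left ventricle with pressure, and hearts were taken 4 weeks later. They ate a low fat diet (SFA) or its variant in which free essential amino acids stood in for 93.5% of the casein (SFA-EAA). Each combination of operation and diet (TAC SFA, TAC SFA-EAA, sham SFA and sham SFA-EAA) had 2 libraries, and the labels name no engineered allele. Whether each library was a different animal is not in the labels, and p-values therefore measure only the spread between these libraries.

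A lipid droplet stores triacylglycerol as a core inside a coat of perilipins. Fatty acids leave the core in sequence: adipose triglyceride lipase (Pnpla2) removes the first, hormone-sensitive lipase (Lipe) the next and monoacylglycerol lipase (Mgll) the last, while Dgat1 and Dgat2 catalyse the closing step of triacylglycerol synthesis. In heart muscle, which burns mainly fatty acids, droplets lie against mitochondria, and the inhibitor G0s2 and the coat protein Plin5 both bind adipose triglyceride lipase.

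The sum of values in a library was 5136441 to 6298743, and the number of reads behind a value is unknown. Mitochondrial genes held 22.13% to 27.72% of it in TAC SFA, 29.19% to 30.27% in sham SFA, 33.59% to 39.53% in TAC SFA-EAA and 34.73% to 37.29% in sham SFA-EAA. This share was lowest in TAC SFA and higher under SFA-EAA than under SFA, as Ces1d was, and its part in the results was not tested. The libraries differed in how values followed the GC content of transcripts. Over 10221 genes, the rank correlation of a gene's deviation with its GC content was 0.344 to 0.516 in the 4 SFA libraries, -0.622 and -0.43 in sham SFA-EAA, and 0.431 and -0.73 in TAC SFA-EAA. TAC SFA-EAA therefore held 1 library on each side, and its replicates had a median absolute log2 difference of 0.316 against 0.138 to 0.176 in the other groups. Ces1d transcripts have 48.6% GC, and those of the 9 other genes have 52.1% to 58.9%. Tests were therefore run on the values as deposited. They were run again, called GC-corrected, after a smooth curve on GC content had been subtracted from each library. The trend was partly confounded with diet, so its removal can also take away or add to a diet difference. Whether the trend is technical cannot be told from these data, and neither version of a diet difference is taken as the true one. Levels are as deposited unless GC-corrected is stated. Replicate 1 of sham SFA and replicate 2 of TAC SFA also stood apart by transcripts of atrial muscle: Myl7, an atrial myosin light chain, was at 621.3 and 321.9 there and at 1.276 to 42.99 in the other 6 libraries.

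The promoter bases of Pnpla2, G0s2 and Plin5 are shown. These 3 genes encode the main droplet lipase of heart muscle and the binding partners of it named above. Plin5 and G0s2 were also both called lower for TAC under SFA once GC content was corrected, as was Dgat2. Those calls depended on single libraries, as given below. The sequences are from RefSeq (GRCm38.p6), and 7 of the 10 genes had an entry. Each runs 5′ to 3′ on the strand of the gene and ends at the RefSeq start site or, for G0s2 and Plin5, where the deposited gene model begins. They cover chr7:141454938-141455187 (plus strand), chr1:193273218-193273438 (minus strand) and chr17:56117597-56117798 (minus strand). Capitals mark matches on either strand to the GC box GGGCGG, the CCAAT box CCAAT and the nuclear receptor half-site AGGTCA.
Pnpla2: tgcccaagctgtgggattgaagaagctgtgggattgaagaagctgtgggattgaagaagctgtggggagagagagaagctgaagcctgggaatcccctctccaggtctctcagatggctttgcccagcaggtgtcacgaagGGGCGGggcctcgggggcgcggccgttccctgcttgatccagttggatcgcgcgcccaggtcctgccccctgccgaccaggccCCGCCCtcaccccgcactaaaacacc
G0s2: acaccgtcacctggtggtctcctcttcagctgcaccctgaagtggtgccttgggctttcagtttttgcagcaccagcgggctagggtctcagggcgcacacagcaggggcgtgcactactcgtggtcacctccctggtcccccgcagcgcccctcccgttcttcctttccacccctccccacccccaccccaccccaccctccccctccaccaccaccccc
Plin5: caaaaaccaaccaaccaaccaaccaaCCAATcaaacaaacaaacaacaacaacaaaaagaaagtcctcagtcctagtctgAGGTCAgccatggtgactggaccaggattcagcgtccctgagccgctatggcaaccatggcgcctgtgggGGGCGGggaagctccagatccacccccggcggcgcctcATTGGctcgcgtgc
The Plin5 stretch held an AGGTCA half-site, which 14% of 32841 promoters of 250 bases hold, between a pair of CCAAT boxes (33.9% of promoters), and a GC box (32.7%). The Pnpla2 stretch held GC boxes on both strands, and the shown G0s2 stretch held none of the letters searched. The full G0s2 window of 250 bases held a GC box at -18 to -13 from the RefSeq start, in the bases not shown. The direct repeat of this half-site with 1 base between the copies, the E-box CACGTG and TATAAA, present in 0.0335%, 6.02% and 12.4% of promoters, were also searched on both strands and were not found in these 3. Every match of the direct repeat is also a match of AGGTCA.

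**Figure D1:**
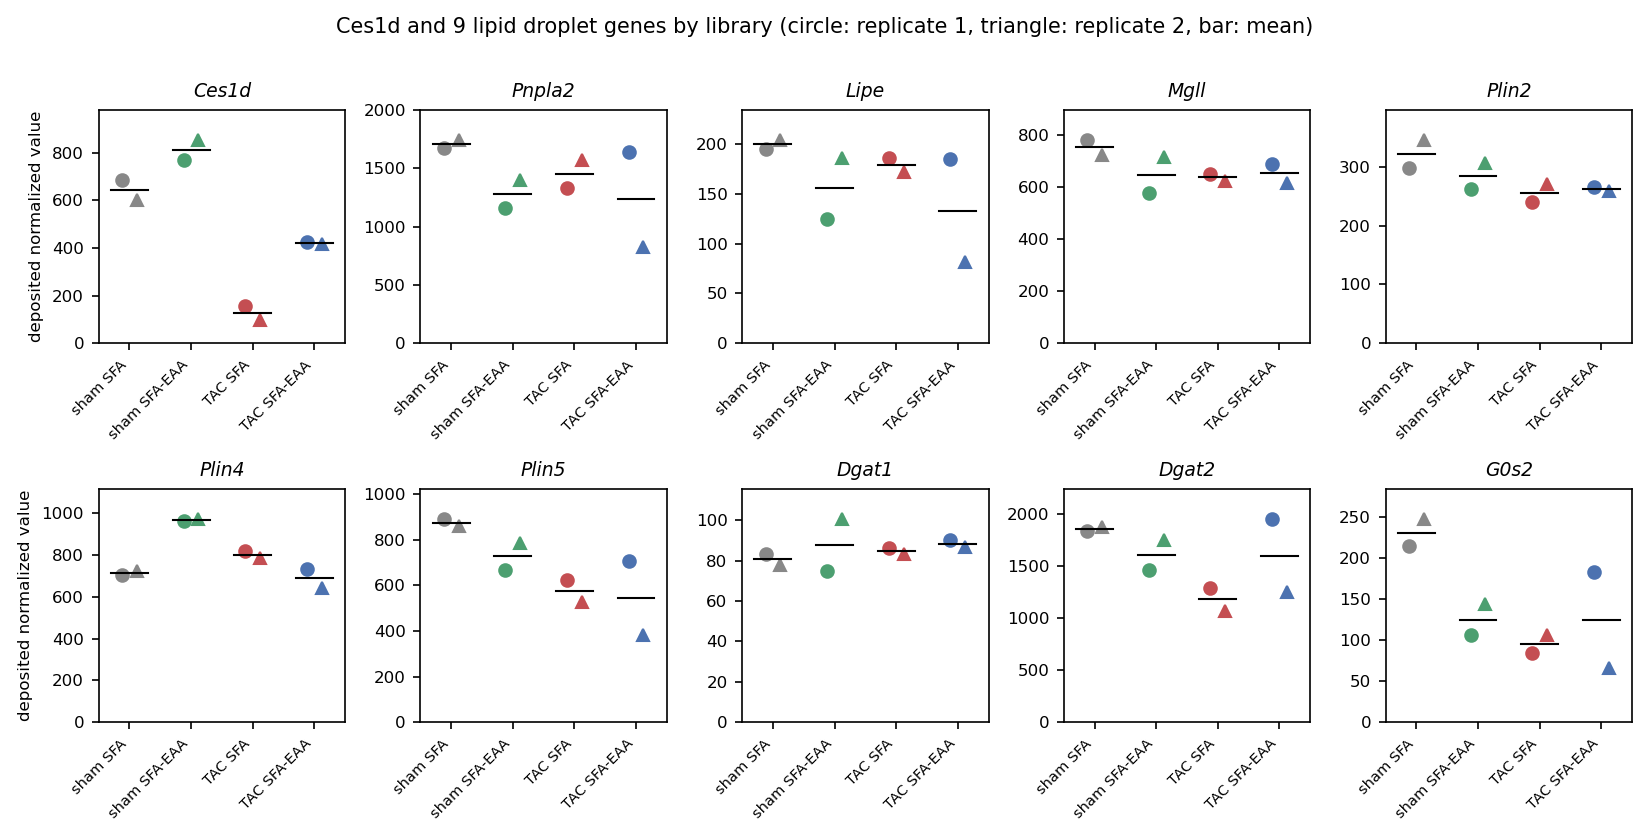
Deposited normalized values (y axis, from 0, a separate scale per gene) of Ces1d and 9 lipid droplet genes in the 4 groups; circles are replicate 1, triangles replicate 2, and bars group means. Ces1d separates all 4 groups, while several other genes, Pnpla2, Lipe, Plin5, Dgat2 and G0s2 among them, have a wide gap between the TAC SFA-EAA replicates.

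Ces1d (ENSMUSG00000056973, chromosome 8, 93166068 to 93197838, minus strand, GRCm38) was at 687 and 601.7 in the sham SFA libraries, 769 and 853.4 in sham SFA-EAA, 154.8 and 99.22 in TAC SFA, and 425.6 and 415.6 in TAC SFA-EAA. All values are in the deposited normalized unit, listed as replicate 1 and replicate 2. No library of any group reached into the range of another, in the order sham SFA-EAA, sham SFA, TAC SFA-EAA, TAC SFA. The group means were 811.2 ± 59.7, 644.4 ± 60.3, 420.6 ± 7.13 and 127 ± 39.3 (SD, n = 2 each). The log2 fold change of TAC against sham was -2.37 under SFA and -0.94 under SFA-EAA, and that of SFA-EAA against SFA was 0.33 in sham and 1.75 after TAC. These comparisons share groups and are the values by which the gene was chosen. Leaving out any library in turn gave -2.68 to -2.05, -1.02 to -0.87, 0.24 to 0.43 and 1.44 to 2.07, and the GC-corrected values were -2.38, -0.97, 0.32 and 1.73. The highest library was 8.60 times the lowest, against 1.34 to 3.76 times for the 9 other genes.

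Ces1d has close relatives on the same chromosome, and 25 of its 2316 stretches of 50 bases (1.079%) also occur in another gene, 17 of them in Ces1b. Ces1b was at 0 in every library. Among the other Ces1 genes, Ces1e was at 1.276 to 6.03 and Ces1c at 0 to 14.27, so Ces1d was far above the rest of its family in these hearts. The largest value of Ces1c, which encodes a secreted esterase of plasma, fell in replicate 1 of TAC SFA-EAA, where the liver gene Alb was also highest at 277.3, against 28.15 in replicate 2. Ces1d was nearly equal in those replicates. The part of liver or plasma RNA in its values was not tested. Of 22 other carboxylesterase and related genes, 9 were tested and none passed the test for any of the 4 group comparisons (limma with Benjamini-Hochberg adjustment), as deposited or GC-corrected, with 1 to 4 of 9 at an unadjusted p under 0.05, beside 8.57% to 17.5% of all genes.

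Compared per kilobase of transcript in sham SFA, Dgat2 (600.3 ± 10.1) and Pnpla2 (566.3 ± 15.3) had the highest levels, followed by Plin5 (419.2 ± 10.5), Ces1d (272 ± 25.4) and G0s2 (265.5 ± 26.7; SD, n = 2 each). Ces1d and G0s2 differed there by less than the spread between replicates. Mgll (148.3), Plin4 (123.9), Plin2 (91.48), Lipe (33.89) and Dgat1 (26.42) followed. In TAC SFA the per-kilobase level of Ces1d was 53.61 ± 16.6, below Plin2 (72.59 ± 6.04) and above Lipe (30.43 ± 1.67). The per-kilobase level of Ces1d relative to that of Pnpla2 was 0.44 to 0.522 in sham SFA, 0.777 to 0.847 in sham SFA-EAA, 0.0803 to 0.148 in TAC SFA and 0.33 to 0.641 in TAC SFA-EAA. GC-corrected, it was 0.516 to 0.587, 0.675 to 0.688, 0.0966 to 0.168 and 0.365 to 0.457 in the same order. The TAC SFA-EAA libraries lay on both sides of sham SFA as deposited and below it after correction.

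TAC against sham under SFA asked how pressure overload altered these genes on the SFA diet. As deposited, 7 of the 9 genes had lower means after TAC and 2 had higher means, with a median log2 fold change of -0.24 against 0.01 over all genes tested. None of the 9 passed the test (limma, adjusted p under 0.05), while 1.25% of all genes did, and 4 of the 9 had an unadjusted p under 0.05, as had 13.4% of all genes. In 7 of the 9 both TAC libraries lay below both sham libraries, a pattern found in 23.1% of all genes. After GC correction Plin5, Dgat2 and G0s2 fell, 3 of 9 where 2.6% of all genes were called lower. These 3 calls were lost when replicate 1 or replicate 2 of sham SFA, or replicate 2 of TAC SFA, was left out of the GC-corrected fit, and without replicate 1 of TAC SFA only Dgat2 and Plin5 were called. In whole tissue, fewer cells of a type and less RNA per cell cannot be told apart.

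G0s2, the inhibitor of adipose triglyceride lipase (ENSMUSG00000009633, chromosome 1, 193272161 to 193273217, minus strand), was at 214.8 and 247.7 in sham SFA and at 84.26 and 106.3 in TAC SFA. Both TAC libraries were below both sham libraries. Its log2 fold change was -1.28 ± 0.39 (SE; adjusted p = 0.184, limma) as deposited and -1.30 ± 0.25 (adjusted p = 0.0119, limma) GC-corrected, a level 2.47-fold lower. Leaving out either TAC SFA-EAA library kept the deposited log2 fold change at -1.28, because those libraries do not enter this difference. Under SFA-EAA its values were 106.3 and 143.8 in sham and 183.4 and 65.94 after TAC, and the TAC libraries lay on both sides of the sham libraries. G0s2 overlaps Lamb3 on the other strand. Lamb3 was at 88.01 and 71.45 in sham SFA and at 43.74 and 34.25 in TAC SFA, lower after TAC as G0s2 was. Under SFA-EAA it was at 62.85 and 81.72 in sham and at 77.86 and 57.61 after TAC. Whether counting used strand is not given in the sources used here, and reads of the 2 genes might not be separated.

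Pnpla2, the lipase that G0s2 inhibits (ENSMUSG00000025509, chromosome 7, 141455198 to 141460743), was at 1677 and 1743 in sham SFA and at 1333 and 1574 in TAC SFA. The TAC libraries were lower, by a log2 fold change of -0.24 ± 0.27 (SE; adjusted p = 0.788, limma) as deposited and -0.28 ± 0.12 (adjusted p = 0.258, limma) GC-corrected. The 95% interval of the GC-corrected difference ran from -0.55 to -0.01. Both transcripts have nearly the same GC content (56.4% for G0s2 and 57% for Pnpla2), so their ratio is little affected by the GC trend. Per kilobase, G0s2 relative to Pnpla2 was 0.444 and 0.493 in sham SFA, 0.319 and 0.356 in sham SFA-EAA, 0.219 and 0.234 in TAC SFA, and 0.387 and 0.277 in TAC SFA-EAA. The ratio was lowest in TAC SFA and highest in sham SFA, with no library of these groups inside the range of another, and only the TAC SFA-EAA and sham SFA-EAA ranges overlapped. The ratio was set up with the values known and was not tested.

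Plin5, the perilipin of oxidative tissues that holds adipose triglyceride lipase at the droplet and tethers droplets to mitochondria (ENSMUSG00000011305, chromosome 17, 56111601 to 56117596, minus strand), was at 890.3 and 859.4 in sham SFA and at 621.5 and 528.3 in TAC SFA. Both TAC libraries were lower, by -0.61 ± 0.25 (log2, SE; adjusted p = 0.324, limma) as deposited and -0.66 ± 0.12 (adjusted p = 0.00875, limma) GC-corrected. Plin5 has the most GC-rich transcripts of the 10 genes, at 58.9%. GC-corrected values were 757.2 and 716 in sham SFA, 912.7 and 932.6 in sham SFA-EAA, 530.1 and 409.8 in TAC SFA, and 611.8 and 579.1 in TAC SFA-EAA. On that scale the TAC libraries lay below the sham libraries under both diets. The replicates of TAC SFA-EAA, at 706.7 and 380.3 as deposited, came close together after correction.

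Dgat2, an acyltransferase that makes triacylglycerol (ENSMUSG00000030747, chromosome 7, 99153658 to 99182719, minus strand), was at 1829 and 1873 in sham SFA and at 1290 and 1065 in TAC SFA. Both TAC libraries were lower, by -0.66 ± 0.20 (log2, SE; adjusted p = 0.176, limma) as deposited and -0.69 ± 0.12 (adjusted p = 0.00745, limma) GC-corrected. Dgat1, the other enzyme of this step, was at 83.49 and 77.91 in sham SFA and at 86.3 and 83.43 in TAC SFA, and these groups overlapped. Its GC-corrected log2 difference was 0.04, with a 95% interval from -0.39 to 0.47. The transcripts match in GC content (56.3% and 56.5%), and per kilobase Dgat2 was 21.7 and 23.8 times Dgat1 in sham SFA, 19.2 and 17.2 times in sham SFA-EAA, 14.8 and 12.6 times in TAC SFA, and 21.4 and 14.3 times in TAC SFA-EAA.

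Plin2, the perilipin found on droplets of most cells, was at 297.5 and 345 in sham SFA and at 239.9 and 270 in TAC SFA, a log2 fold change of -0.33 ± 0.14 (SE; adjusted p = 0.355, limma) as deposited and -0.36 ± 0.12 (adjusted p = 0.136, limma) GC-corrected. Mgll was at 780.9 and 725.3 in sham SFA and at 652.7 and 624.8 in TAC SFA, and Lipe at 195.2 and 203.7 and at 186 and 172.2. The log2 fold change of Mgll was -0.24 ± 0.13 (SE; adjusted p = 0.505, limma) as deposited and -0.25 ± 0.12 (adjusted p = 0.294, limma) GC-corrected. That of Lipe was -0.16 ± 0.33 (SE; adjusted p = 0.911, limma) and -0.17 ± 0.22 (adjusted p = 0.771, limma). For these 3 genes both TAC libraries were below both sham libraries, but none passed the test. Plin4, a perilipin abundant in adipose tissue and muscle, was the exception among the coat genes. It was at 706.7 and 725.3 in sham SFA and at 820.8 and 784.9 in TAC SFA, with both TAC libraries higher (log2 0.16 ± 0.11, SE, adjusted p = 0.607 as deposited and 0.14 ± 0.11, adjusted p = 0.569 GC-corrected, limma).

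**Figure D2:**
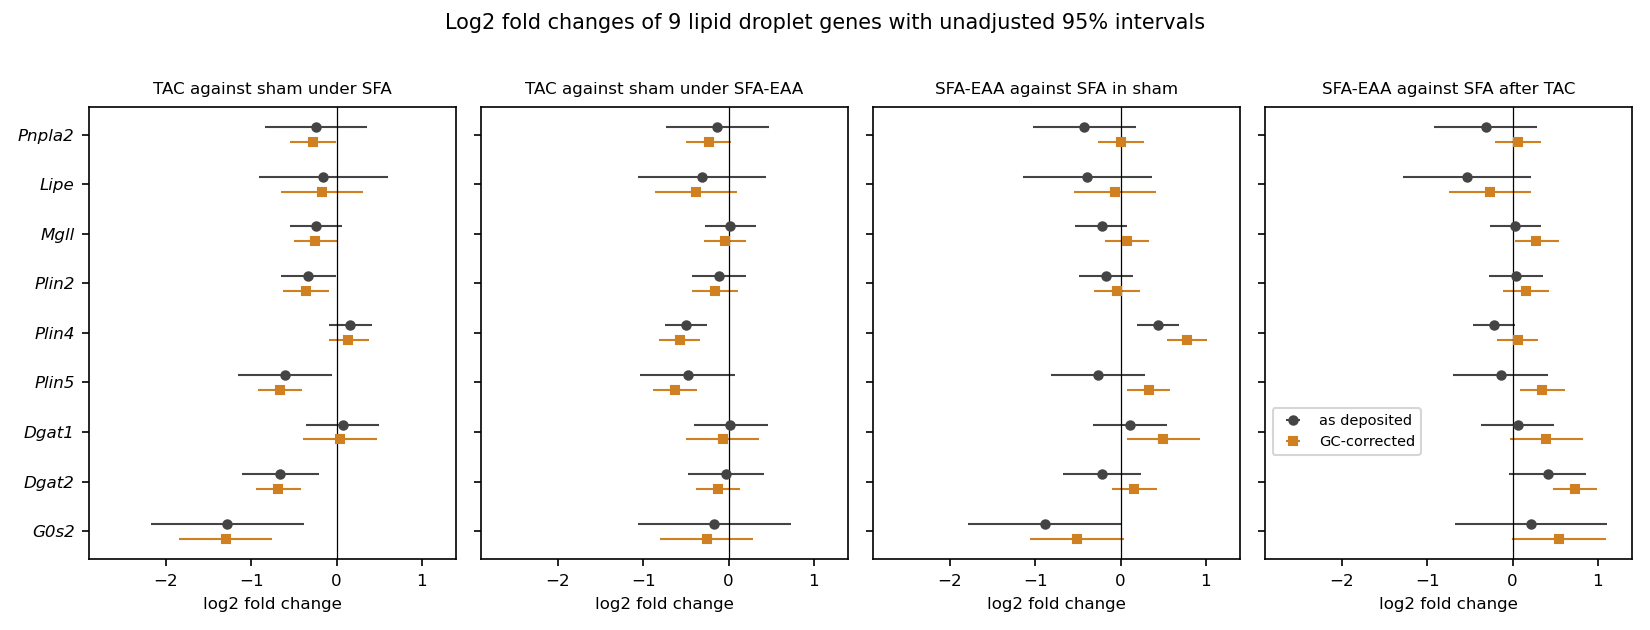
Log2 fold changes (x axis) of the 9 lipid droplet genes other than Ces1d in the 4 group comparisons, as deposited (circles) and GC-corrected (squares), with unadjusted 95% intervals from limma. For TAC under SFA both versions nearly coincide, for example -0.66 and -0.69 for Dgat2, whereas the diet comparisons of most genes shift to the right after correction, for example from 0.41 to 0.73 for Dgat2 after TAC.

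TAC against sham under SFA-EAA gave lower means for 7 of the 9 genes and a median log2 fold change of -0.13, against 0.00 over all genes. None of the 9 passed the test (limma), as deposited or GC-corrected, where 0.0122% and 0.207% of all genes did, and at an unadjusted p under 0.05 there were 1 and 2 of 9, beside 8.57% and 11.4% of all genes. Plin4 (ENSMUSG00000002831, chromosome 17, 56100591 to 56109803, minus strand) was at 965.9 and 973 in sham SFA-EAA and at 734.6 and 642.4 in TAC SFA-EAA, lower in both. Its log2 fold change was -0.50 ± 0.11 (SE; adjusted p = 0.304, limma) as deposited and -0.57 ± 0.11 (adjusted p = 0.0621, limma) GC-corrected. GC-corrected Plin5 was lower by a similar amount, -0.63 ± 0.12 (SE; adjusted p = 0.0595, limma), close to its -0.66 under SFA. Plin5 passed when either TAC SFA library was left out of the GC-corrected fit, and Plin4 when replicate 2 of TAC SFA-EAA was. For Dgat2 the GC-corrected difference was -0.12, with a 95% interval from -0.38 to 0.14, and for G0s2 it was -0.25, with an interval from -0.80 to 0.29.

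Whether the change with TAC differed between the diets was tested as an interaction. None of the 9 genes passed (limma), as deposited or GC-corrected, and neither did any other gene (0% of those tested both ways). At an unadjusted p under 0.05 there was 1 of 9 as deposited and 3 of 9 GC-corrected, beside 5.49% and 8.06% of all genes. The GC-corrected interaction was 0.57 ± 0.17 for Dgat2 (adjusted p = 0.382, limma), 1.05 ± 0.35 for G0s2 (adjusted p = 0.475) and -0.71 ± 0.15 for Plin4 (adjusted p = 0.213). A difference between the diets in the response of these genes is thus not shown. Ces1d had an interaction of 1.42 as deposited and 1.41 GC-corrected, given as a description.

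Over both diets, TAC against sham as deposited gave 0 of 9 calls (limma; 2.11% of all genes) and 3 of 9 with an unadjusted p under 0.05 (15.3% of all genes). GC-corrected, Plin5 fell by 0.64 on the log2 scale (adjusted p = 0.00112, limma), Dgat2 by 0.40 (adjusted p = 0.0159) and G0s2 by 0.78 (adjusted p = 0.0236), 3 of 9 where 3.17% of all genes were called lower. Plin5 was lower in 4 of 4 TAC libraries than in any sham library on the corrected scale, a pattern of 4.07% of all genes. It remained called when any single library, or both libraries with atrial transcripts, was left out of the GC-corrected fit. Dgat2 and G0s2 were each lost without replicate 1 or 2 of sham SFA and without replicate 1 or 2 of sham SFA-EAA. G0s2 was also lost without either TAC SFA library, and Dgat2 without replicate 2 of TAC SFA-EAA.

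**Figure D3:**
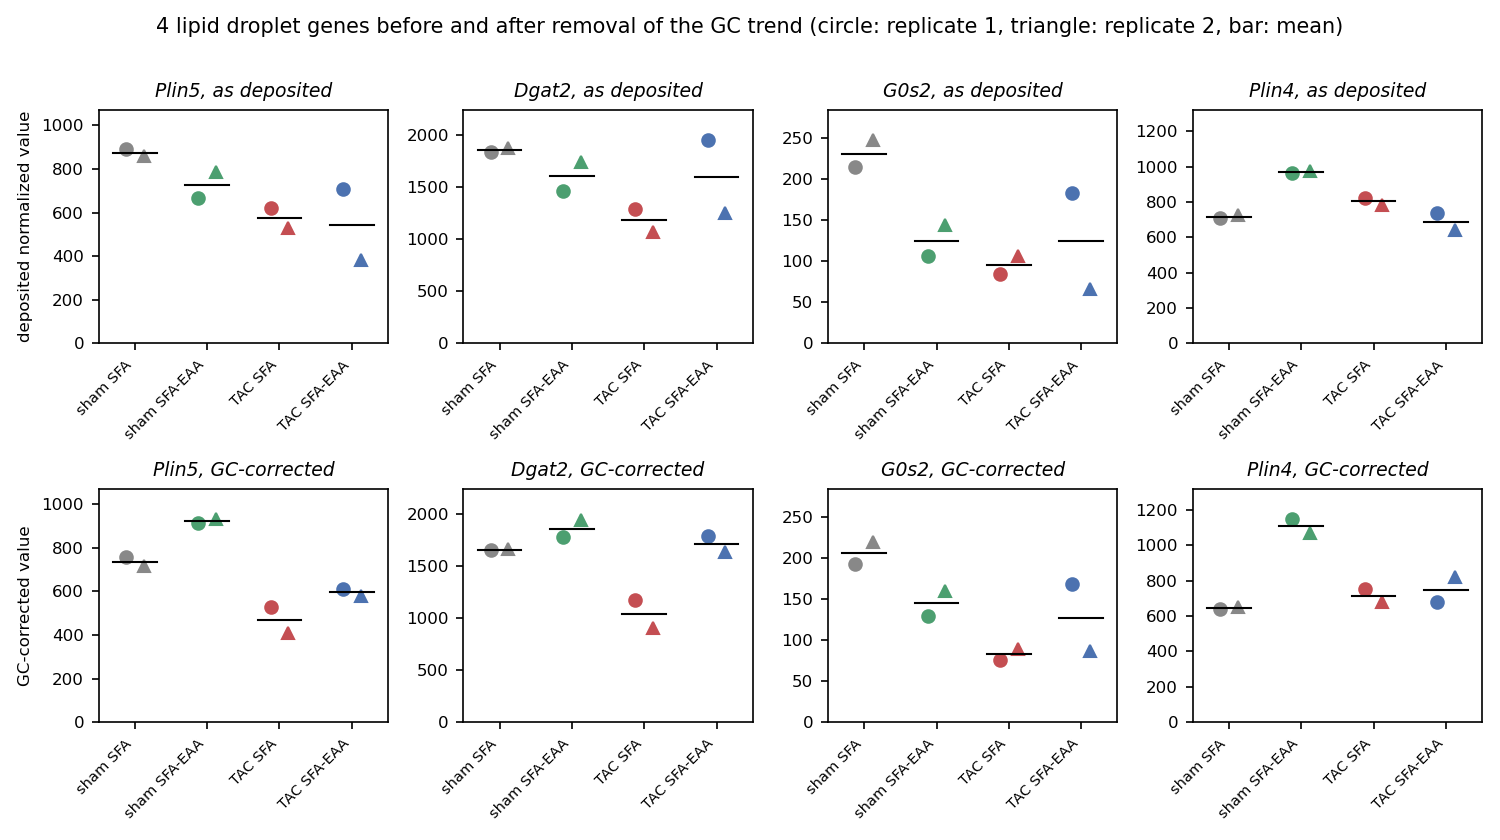
Plin5, Dgat2, G0s2 and Plin4 by library (y axes from 0, the same scale within a gene), as deposited in the upper row and GC-corrected in the lower row; circles are replicate 1, triangles replicate 2 and bars group means. The gap between the TAC SFA-EAA replicates of Plin5 (706.7 and 380.3) narrows after correction to 611.8 and 579.1, while that of G0s2 (183.4 and 65.94) remains wide at 168.1 and 86.78.

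The diets were compared first in sham hearts. As deposited, 7 of the 9 genes had lower means under SFA-EAA, and in 6 of them both SFA-EAA libraries were below both SFA libraries, as in 27.6% of all genes. None passed the test (limma; 0% of all genes), and 2 of 9 had an unadjusted p under 0.05, near the 14.8% of all genes. With the GC correction the direction turned in 4 of these 7 genes, Pnpla2, Mgll, Plin5 and Dgat2, while G0s2, Lipe and Plin2 still had lower means. Plin4 was higher in both versions, with 965.9 and 973 in sham SFA-EAA against 706.7 and 725.3 in sham SFA. Its log2 fold change was 0.44 ± 0.11 (SE; adjusted p = 0.267, limma) as deposited and 0.78 ± 0.11 (adjusted p = 0.0456, limma) GC-corrected, the only call among the 9 where 0.0243% of all genes were called higher. That call was kept only when a TAC SFA-EAA library was left out of the GC-corrected fit, and was lost without any of the other 6 libraries. Plin4 overlaps Hdgfrp2 on the other strand, which was at 113.41 and 136.95 in sham SFA-EAA and at 168.36 and 183.4 in sham SFA, the reverse of the order of Plin4. G0s2, at 106.3 and 143.8 in sham SFA-EAA against 214.8 and 247.7 in sham SFA, was lower in both versions, by -0.89 ± 0.39 (log2, SE; adjusted p = 0.337, limma) and -0.51 ± 0.25 (adjusted p = 0.5, limma).

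Plin4 and Plin5 are neighbours on chromosome 17, both on the minus strand, with 1797 bases between the gene models. Their values did not run in parallel. Per kilobase, Plin4 relative to Plin5 was 0.287 and 0.305 in sham SFA, 0.522 and 0.447 in sham SFA-EAA, 0.477 and 0.537 in TAC SFA, and 0.375 and 0.61 in TAC SFA-EAA. GC-corrected, the ratio was 0.306 and 0.329, 0.455 and 0.414, 0.515 and 0.597, and 0.402 and 0.511 in the same order. Sham SFA had the lowest ratio in both libraries on either scale.

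After TAC, the comparison of SFA-EAA with SFA asked whether the amino acid diet changed these genes in the overloaded heart. As deposited, 5 of the 9 genes had higher and 4 had lower means, with a median log2 fold change of 0.03 against -0.03 over all genes. None passed the test (limma; 0.0487% of all genes), and 0 of 9 had an unadjusted p under 0.05, where 15.1% of all genes had. Both SFA-EAA libraries were higher for Dgat1 and lower for Plin4, as for 21.7% and 21.1% of all genes, and in the other 7 genes the groups overlapped. The TAC SFA-EAA replicates of several of these lay far apart: Pnpla2 was at 1644 and 826.2, Lipe at 184.5 and 81.57, and Dgat2 at 1947 and 1248. With replicate 1 of TAC SFA-EAA left out, the log2 differences of Pnpla2 and Lipe were -0.81 and -1.12. With replicate 2 left out they were 0.18 and 0.04. Replicate 2 had the GC correlation of -0.73, and these transcripts have 57% and 55.6% GC. GC-corrected with all libraries, the differences were 0.06 and -0.27. The TAC SFA-EAA replicates of Ces1d, 425.6 and 415.6, did not lie far apart.

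GC-corrected, 8 of the 9 genes had higher means under SFA-EAA after TAC, with a median of 0.28 against 0.00 over all genes. Dgat2 rose, with corrected values of 1788 and 1633 against 1172 and 901.9 in TAC SFA (log2 0.73 ± 0.12, SE; adjusted p = 0.0127, limma), 1 of 9 where 1.11% of all genes were called higher. As deposited the same difference was 0.41 ± 0.20 (adjusted p = 0.369, limma). The Dgat2 call was lost without replicate 2 of TAC SFA and kept without each of the other 7 libraries. Plin5 was higher in both corrected SFA-EAA libraries, by 0.35 ± 0.12 (SE; adjusted p = 0.168, limma), and the sign was the opposite as deposited (-0.14). G0s2 overlapped between the groups, at 0.54 ± 0.25 (SE; adjusted p = 0.338, limma). Pnpla2 differed by 0.06, with a 95% interval from -0.21 to 0.33.

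Over both operations, SFA-EAA against SFA as deposited gave 0 of 9 calls (limma; 1.21% of all genes) and 0 of 9 with an unadjusted p under 0.05, where 23.2% of all genes had one. GC-corrected, Plin4 rose by 0.42 (log2; adjusted p = 0.0169, limma) and Dgat2 by 0.45 (adjusted p = 0.0187, limma), 2 of 9 where 1.81% of all genes were called higher. Both calls were lost without any sham library and without replicate 2 of TAC SFA. In each gene the libraries of the diets overlapped.

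The gene closest to Ces1d over the 8 libraries was Tmem35a, a chaperone of acetylcholine receptors, with Pearson r = 0.994 on log2(value + 1). The search covered 1095 genes whose mean reached 20 and whose SD on that scale reached 0.5, and libraries of 4 groups share the group differences, so r is a description. Rbfox1, a splicing factor of muscle and neurons, followed at 0.988, then Kcnj3, an atrial and nodal potassium channel subunit, at 0.982, Cenpf at 0.981 and Kcnv2, a modifier of voltage-gated potassium channels, at 0.981. Selenbp1 (0.976), Smco1 (0.968) and Ift81 (0.966) completed the 8 closest. Kcnv2, for example, was at 43.79 and 43.98 in sham SFA, 63.77 and 72.4 in sham SFA-EAA, 9.439 and 7.452 in TAC SFA, and 44 and 35.66 in TAC SFA-EAA. The lipid droplet genes tested above were left out of this search and could not be among the 8. Their own correlations are given below. None of the 8 is on the other lists used here. The most opposed were Mllt11 (-0.991), Bgn, a matrix proteoglycan (-0.990), Svep1 (-0.985) and Synpo2l, a protein of the sarcomere Z-disc (-0.984). Bgn was at 1135 and 971.1, 835.8 and 746.7, 3064 and 5062, and 1387 and 1304 in the same order of groups.

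**Figure D4:**
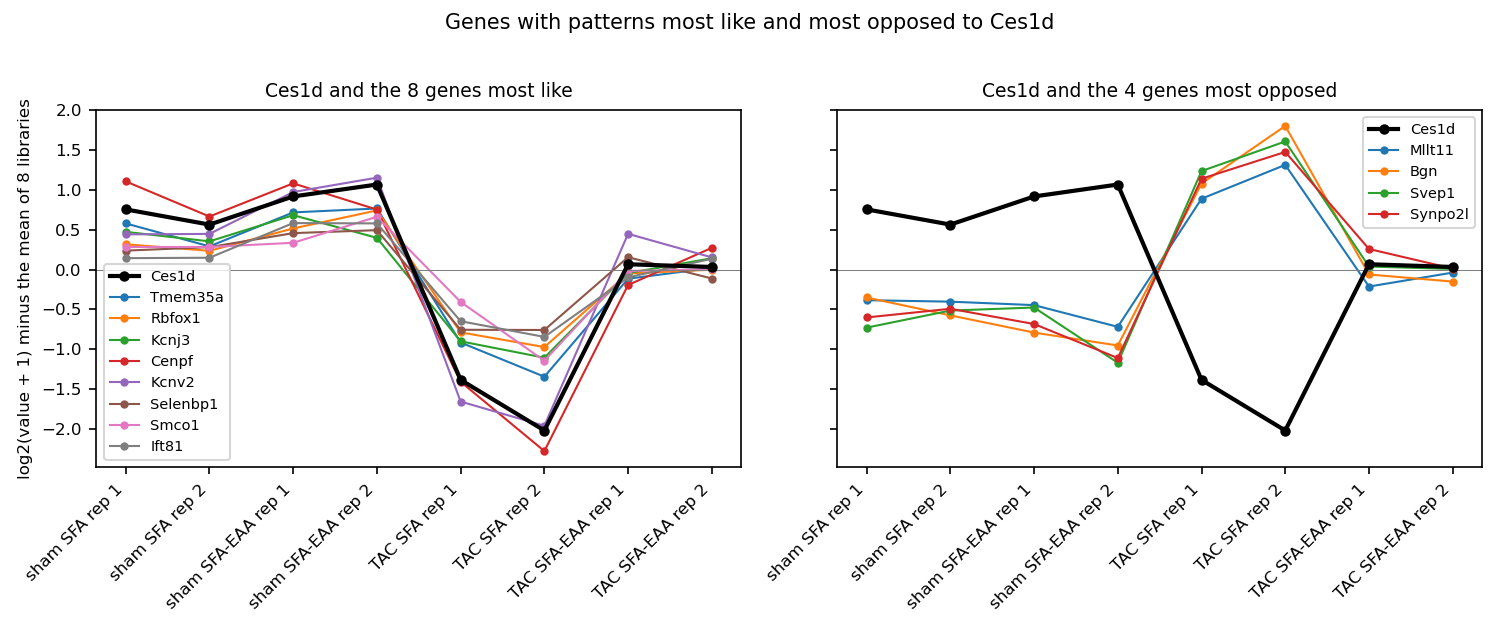
Log2(value + 1) minus the gene's mean over the 8 libraries (y axis) for Ces1d (black) and the 8 genes most like it (left) and the 4 most opposed to it (right), over the libraries on the x axis. All 8 like genes are lowest in the TAC SFA libraries, and Tmem35a (r = 0.994) and Rbfox1 (0.988) follow Ces1d most closely in shape.

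Among the lipid droplet genes, the correlation with Ces1d depended on the GC correction. As deposited it was highest for Dgat2 (0.75), Plin2 (0.53) and Plin5 (0.49), and near 0 for Dgat1 (0.04), Pnpla2 (-0.05) and Lipe (-0.06). GC-corrected it was 0.95 for Dgat2, 0.94 for Plin5, 0.80 for Mgll, 0.78 for Plin2, 0.74 for G0s2 and 0.66 for Pnpla2, over the same 8 libraries. Plin4 and Dgat1 (0.42 each) and Lipe (0.24) stayed lowest. Thus Dgat2 and Plin5 had the corrected pattern nearest to Ces1d.

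Other genes of the same processes came from lists drawn up with earlier results of these data known. Of 24 other genes of droplet coat and biogenesis, all tested, Fitm2 fell with TAC under SFA as deposited, 1 of 24 (1.25% of all genes called). Fitm2, an endoplasmic reticulum protein needed for droplet budding, was at 1438 and 1339 in sham SFA and at 891.9 and 786.7 in TAC SFA (log2 -0.73 ± 0.13, SE; adjusted p = 0.0319, limma). GC-corrected, Fitm1, its muscle form, fell too, by 0.87 on the log2 scale (adjusted p = 0.00106, limma), 2 of 24 in all. Fitm1 was at 581.7 and 599.1 in sham SFA and at 334 and 320.5 in TAC SFA. After TAC its GC-corrected value was higher under SFA-EAA by 0.55 (adjusted p = 0.0286, limma), whereas as deposited the difference had the opposite sign, since the SFA-EAA libraries were at 466.6 and 219.7.

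Of 19 tested genes among 22 other genes of lipolysis and its control, none passed for TAC under SFA or for diet after TAC (limma), as deposited or GC-corrected, with 2 to 4 of 19 at an unadjusted p under 0.05, beside 13.4% to 17.5% of all genes. Abhd5, the coactivator of adipose triglyceride lipase, was at 295.1 and 264 in sham SFA, 373.8 and 321.5 in sham SFA-EAA, 266.5 and 295.8 in TAC SFA, and 303.7 and 338.4 in TAC SFA-EAA. The sham SFA and TAC SFA libraries overlapped. Abhd15, which acts in the insulin control of lipolysis in fat cells, was called as deposited for diet over both operations, 1 of 19 (1.21% of all genes). It was low throughout, at 6.787 and 8.248 in sham SFA, 1.22 and 1.189 in sham SFA-EAA, 18.06 and 14.73 in TAC SFA, and 3.1 and 1.445 in TAC SFA-EAA (log2 -2.20 ± 0.32, SE; adjusted p = 0.0353, limma). All SFA-EAA libraries were below all SFA libraries, in a gene named because it was called. These values are close to the pseudocount of 1, and the call was lost without each library in turn except replicate 1 of TAC SFA-EAA. It was also lost with no filter (adjusted p = 0.092, limma) and with a replicate block (adjusted p = 0.0816, limma).

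Of 27 tested genes of fatty acid handling and the PPAR pathway, 24 had lower and 3 higher means after TAC under SFA, with a median log2 fold change of -0.37 against 0.01 over all genes. As deposited 1 of them fell, Acot1, an acyl-CoA thioesterase, with 52.98 and 39.43 in sham SFA and 7.596 and 8.747 in TAC SFA (log2 -2.35 ± 0.42, SE; adjusted p = 0.0388, limma). The Acot1 and Fitm2 calls as deposited were lost without any 1 of the sham libraries or TAC SFA libraries. They were also lost with no filter (adjusted p = 0.12 and 0.0666, limma) and with a replicate block (adjusted p = 0.0677 and 0.078, limma). GC-corrected, 9 of 27 fell and none rose (2.6% and 2.4% of all genes called lower and higher). Among them Mlycd, malonyl-CoA decarboxylase, which lifts the brake on fatty acid entry into mitochondria, fell by 0.91 on the log2 scale (adjusted p = 0.000326, limma), from 695 and 772.4 to 386 and 417.4 as deposited. After TAC, 3 of 27 rose under SFA-EAA on the corrected scale, where 1.11% of all genes were called higher, and Mlycd was among them (0.88; adjusted p = 0.00198, limma). As deposited its SFA-EAA libraries were at 707.8 and 379.3, on both sides of TAC SFA. None of the 27 passed as deposited (limma), with 9 at an unadjusted p under 0.05 (15.1% of all genes). The lower means after TAC were not particular to SFA. Under SFA-EAA, 25 had lower and 2 higher means after TAC (median -0.29 against 0.00 over all genes), and none passed. Over both diets 4 of 27 fell as deposited (2.11% of all genes called) and 12 GC-corrected (3.17% of all genes called lower).

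Of 19 tested genes of triacylglycerol synthesis other than Dgat1 and Dgat2, none passed for TAC under SFA as deposited (limma), with 5 at an unadjusted p under 0.05 (13.4% of all genes). GC-corrected, 1 rose, Soat1, which esterifies cholesterol for storage, and 1 fell, Agpat3, an acyltransferase of phosphatidic acid synthesis, where 2.4% of all genes were called higher and 2.6% lower. Gpam, which catalyses the entry step of this route, was at 488.3 and 546.7 in sham SFA and at 524.6 and 525.4 in TAC SFA, within the sham range.

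**Figure D5:**
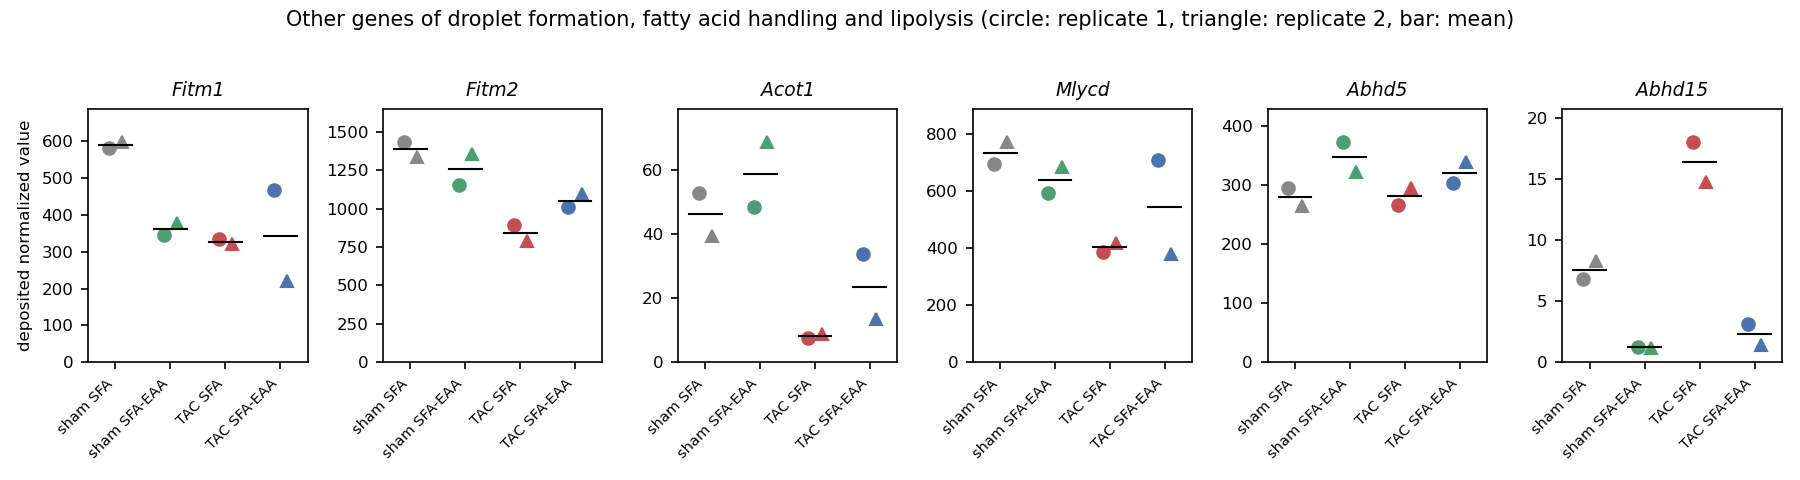
Deposited normalized values (y axes from 0, a separate scale per gene) of Fitm1, Fitm2, Acot1, Mlycd, Abhd5 and Abhd15 in the 4 groups; circles are replicate 1, triangles replicate 2 and bars group means. Fitm2, Acot1 and Mlycd are low in both TAC SFA libraries, and Abhd15 is low in all SFA-EAA libraries (1.189 to 3.1) and highest in TAC SFA (18.06 and 14.73).

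Markers of other cells were measured beside these genes, since fat cells and liver also express them. Of 18 adipocyte markers in the table, 3 stayed under 1 in every library. Adipoq was at 0 to 16.11 and Plin1, the perilipin of fat cells, at 0 to 8.087, while Adrb3 was at 0 in all libraries. Others of the list were higher: Thrsp at 70.72 to 161.6, Slc36a2 at 67.47 to 135.5 and Aqp7 at 60.5 to 142. Adipoq, Plin1, Cfd, Car3 and Cidec were highest in replicate 1 of sham SFA. In TAC SFA these were higher in replicate 2, while Thrsp, Slc36a2, Retn, Pparg, Cd36 and Fabp4 were higher in replicate 1. Plin4 was at 642.4 to 973 and Plin1 at 8.087 or less. The summed adipocyte list was 12818 to 13263 in sham SFA, 18110 to 19940 in sham SFA-EAA, 8649 to 11909 in TAC SFA and 12937 to 16438 in TAC SFA-EAA. It came mostly from Cd36 (6727 to 15709) and Fabp4 (1570 to 3788), which heart muscle and its capillaries also express. The order of the sum, with TAC SFA lowest and sham SFA-EAA highest, is therefore mostly that of Cd36 and Fabp4. Over the 15 tested markers of the list, 6 were higher and 9 lower under SFA-EAA in sham (median log2 -0.06), and 7 were higher and 8 lower after TAC (median -0.51). Under SFA 14 of 15 were lower after TAC (median -0.45), and under SFA-EAA 15 of 15 were (median -0.60). The part of these markers in the results was not tested. The summed cardiomyocyte list was 538286 to 540602 in sham SFA and 474090 to 492391 in sham SFA-EAA. It was 437799 to 452554 in TAC SFA and 423423 to 523619 in TAC SFA-EAA. The summed fibroblast list was 11468 to 12954, 9869 to 10176, 13161 to 21000 and 9018 to 10699 in the same order. Under SFA-EAA, 10 of 10 fibroblast markers had lower deposited means after TAC (median log2 -0.68), and 6 of 10 had in sham (median -0.25). The hepatocyte and blood list summed to 2442 to 2538 in sham SFA, 1571 to 1958 in sham SFA-EAA, 3168 to 3606 in TAC SFA and 1079 to 4127 in TAC SFA-EAA, and 11 of 11 members had higher deposited means after TAC under each diet. The macrophage list summed to 1345 to 1803, 1256 to 1359, 2020 to 2332 and 1837 to 2312 in the same order, with 10 of 10 higher after TAC under each diet. The part of these lists in the lower values after TAC, or in the diet differences, was not tested.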

How the data were processed

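The study measured polyadenylated RNA of mouse left ventricle in 8 libraries, 2 in each of 4 groups of operation and diet taken from the labels. The submitters' processing notes name STAR 2.5, the build GRCm38 and edgeR. Which counter and annotation release the authors used, and whether they used strand, is not given in the sources used here. The deposited table holds a normalized signal per gene and library, not counts, so no count test was run.

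Limma-trend (limma 3.58.1, R 4.3.3) was fitted to log2(value + 1) of the 16432 genes that reached 1 in 2 or more libraries, giving each group its mean and all groups 1 spread. Log2 fold changes are on that scale and understate changes of low genes. P-values are two-sided and adjusted by Benjamini-Hochberg over all genes in each of 7 comparisons, with a threshold of 0.05. Values are mean ± SD (n = 2) or log2 fold change ± SE. For the GC correction, a loess curve (span 0.3) of gene deviations on the GC content of the longest GENCODE transcript, fitted on genes whose mean reached 20, was taken off every library. It covered 99.8% of tested genes, and afterwards the rank correlation with GC content was -0.027 to 0.042. Other alternatives were a pseudocount of 0.25, no filter, quantile normalization, a replicate block, leaving out each library, and leaving out both libraries with atrial transcripts. GC correction combined with left-out libraries was chosen after seeing the data.

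The 10 genes and all lists were chosen with earlier results of these data known. Named genes are the 10 members and list genes called in a comparison or with small p-values (not all are reported). The 8 genes most and 4 least correlated with Ces1d, leaving out members and predicted gene models, are also named. Abhd5 and Gpam were named for their role. Of 49326 genes matched to GENCODE, 91.5% had the same coordinates; those of Dgat1 differed and are not printed. The scripts were tested on simulated data. Figures used matplotlib 3.10.9.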

Additional observations from a re-analysis of the deposited data

Results flagged for a closer look

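Plin4 moved in opposite directions in groups under the same contrast. SFA-EAA against SFA gave a log2 difference of 0.44 in sham hearts, with both SFA-EAA libraries higher, and of -0.22 after TAC, with both lower. TAC against sham gave 0.16 under SFA, with both TAC libraries higher, and -0.50 under SFA-EAA, with both lower. The test of the difference itself, the interaction, was -0.66 (adjusted p = 0.785, limma) as deposited and -0.71 (adjusted p = 0.213, limma) GC-corrected, so it did not pass. GC-corrected, the diet difference after TAC was 0.06 and its libraries overlapped.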

How the results depend on the processing

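Over 55 results and 825 alternative values, 712 kept their direction and side of the threshold, 6 moved, 28 lost and 38 gained a call, and 41 changed sign; the cause was not tested except where fewer libraries or genes entered a fit. Counts of all genes called are given in the order TAC under SFA, TAC under SFA-EAA, diet in sham, diet after TAC, interaction, TAC over both diets and diet over both operations. They were 205, 2, 0, 8, 0, 347 and 199 in the reported fit, 150, 0, 0, 0, 0, 275 and 57 with a pseudocount of 0.25, 197, 0, 0, 0, 0, 56 and 0 with no filter, and 185, 0, 0, 9, 0, 291 and 42 with quantile normalization. With GC correction they were 821, 34, 5, 305, 0, 1018 and 454. Without both libraries with atrial transcripts all were 0. Leaving out 1 library gave 0 to 385, 0 to 0, 0 to 466, 0 to 1395, 0 to 0, 24 to 563 and 0 to 3043. The share of calls that were higher moved with GC correction from 66.8% to 48.0% for TAC under SFA, from 25.0% to 60.0% for diet after TAC, from 65.4% to 48.8% for TAC over both diets and from 40.2% to 65.4% for diet over both operations. For diet over both operations it was 28.1% with a pseudocount of 0.25 and 21.4% with quantile normalization. Of the 9 genes, 3, 0, 1, 1, 0, 3 and 2 were called with GC correction and 0 with the pseudocount, filter and quantile settings. Leaving out 1 library gave 0 to 1, 0 to 0, 0 to 1, 0 to 2, 0 to 0, 0 to 2 and 0 to 4 as deposited, and 0 to 3, 0 to 1, 0 to 1, 0 to 2, 0 to 0, 1 to 4 and 0 to 3 with GC correction. Without both atrial libraries and with GC correction, 1 was called for TAC over both diets, Plin5, and 0 for the others. Whether replicate numbers pair the samples is not in the labels, which give only the number. As deposited, the differences between replicate 1 and replicate 2 correlated between groups at -0.271 to 0.0389. This does not decide it, because those differences also carry the GC trend. With the replicate block the counts of all genes were 96, 0, 0, 0, 0, 147 and 0, and none of the 9 was called. With the replicate block and GC correction they were 666, 24, 0, 183, 2, 804 and 316, and 3, 0, 0, 1, 0, 3 and 2 of the 9 were called. Among these 55 results, the log2 values that changed sign under GC correction, with or without the replicate block, were Pnpla2 in diet in sham (0.01) and after TAC (0.06), Mgll in TAC under SFA-EAA (-0.04) and diet in sham (0.07), Plin4 in diet after TAC (0.06), Plin5 in diet in sham (0.33) and after TAC (0.35), Dgat1 in TAC under SFA-EAA (-0.07), Dgat2 in diet in sham (0.16) and Fitm1 in diet after TAC (0.55). Others not among them turned too: Pnpla2 (0.03), Mgll (0.18), Plin2 (0.06), Plin5 (0.34) and G0s2 (0.02) in diet over both operations and Dgat1 (-0.01) in TAC over both diets. With 1 library left out, sign changes occurred in TAC under SFA-EAA for Pnpla2 (-0.62 to 0.37), Lipe (-0.89 to 0.27), Mgll (-0.13 to 0.17), Dgat1 (-0.18 to 0.23), Dgat2 (-0.35 to 0.29) and G0s2 (-0.90 to 0.56). In diet after TAC they occurred for Pnpla2 (-0.81 to 0.18), Lipe (-1.12 to 0.04), Mgll (-0.05 to 0.11), Plin2 (-0.04 to 0.13), Plin5 (-0.59 to 0.30), G0s2 (-0.51 to 0.95), Mlycd (-0.08 to 0.82) and Fitm1 (-0.57 to 0.51). They also occurred for Dgat1 in diet in sham (-0.10 to 0.32) and Dgat2 in diet over both operations (-0.06 to 0.26). Read depth is not known, so no counting error could be given for low genes such as Abhd15.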
